A study of Oryza sativa Japonica Group and Oryza sativa with 4 samples.

Results

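The response to infestation in leaves of a near-isogenic line (NIL) of rice that carries Grh1, a resistance locus against the green rice leafhopper (GRH, Nephotettix cincticeps), was read from the library NIL GRH and the library NIL control. Genes were ranked by the log2 ratio of their levels, log2((NIL GRH FPKM + 1)/(NIL control FPKM + 1)), where FPKM is the read level after division by transcript length and by library size. A gene entered the ranking when it had at least 30 reads in at least 1 of the 2 NIL libraries, which 13289 of the 37849 genes of the table did (35.1%). All counts below are over these ranked genes unless another base is given.

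The series holds 4 leaf libraries, 1 each for NIL GRH, NIL control, Ilpum GRH and Ilpum control, from seedlings taken 21 days after germination. The GRH seedlings had carried second-instar nymphs for 48 h, and the control seedlings were not infested, per the study's methods. The NIL was derived from a cross of Shingwang, the indica donor of Grh1, with Ilpum, the susceptible japonica cultivar and recurrent parent, so that NIL and Ilpum share most of their genome and the NIL keeps donor sequence around Grh1 on chromosome 5. The study compared the lines to find genes that respond to the insect with and without the locus. The methods describe leaves of 2 seedlings per condition, and whether a library analysed here holds 1 seedling or both is not given in the sources used here. With 1 library per condition there is no spread between replicates, no test across plants was possible, and every ratio below compares 2 libraries.

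Leafhoppers feed by pushing a stylet into the vascular tissue, and grasses answer piercing and chewing insects in part through jasmonate, a hormone made from fatty acids of the chloroplast membrane. Lipoxygenase, allene oxide synthase, allene oxide cyclase and oxophytodienoate reductase act in that order in its synthesis, and JAZ proteins of the TIFY family repress the response until the hormone triggers their breakdown. Volatile terpenes and indole, phenolic compounds made from phenylalanine, proteinase inhibitors and chitinases are well known products of wounded or attacked leaves, while genes of photosynthesis often have lower transcript levels in such leaves.

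NIL GRH held 1170099 reads over genes and NIL control 5037081, which made NIL control 4.30 times as deep. Ilpum GRH held 894661 and Ilpum control 2119765 reads. At least 1 read was found for 16846 genes in NIL GRH and for 21548 in NIL control. The label leaf fitted the markers: 25 genes for antenna proteins and the rubisco small subunit summed to 7056 FPKM in NIL GRH and 23672 FPKM in NIL control, while the 4 genes described as root-specific were listed at 0 in both NIL libraries. The leaves are mixtures of cells, so fewer cells of a type and less RNA per cell cannot be told apart. Reads for the 45 genes of seed storage proteins were also present, 4 in NIL GRH and 1407 in NIL control, and are described below.

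Most genes differed little between NIL GRH and NIL control. The median log2 ratio was -0.14, the quartiles were -0.77 and 0.41, and 9479 genes (71.3%) stayed within 2-fold. At least 4-fold higher levels in NIL GRH were found for 310 genes (2.33%) and at least 4-fold lower levels for 1045 (7.86%). At 2-fold, 1231 genes were higher (9.26%) and 2579 lower (19.4%). The log2 ratios ranged from -7.07 to 8.03. The plot of all ranked genes shows the higher genes spread over a wide range of levels and a dense row of lower genes at 0 in NIL GRH.

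**Figure D1:**
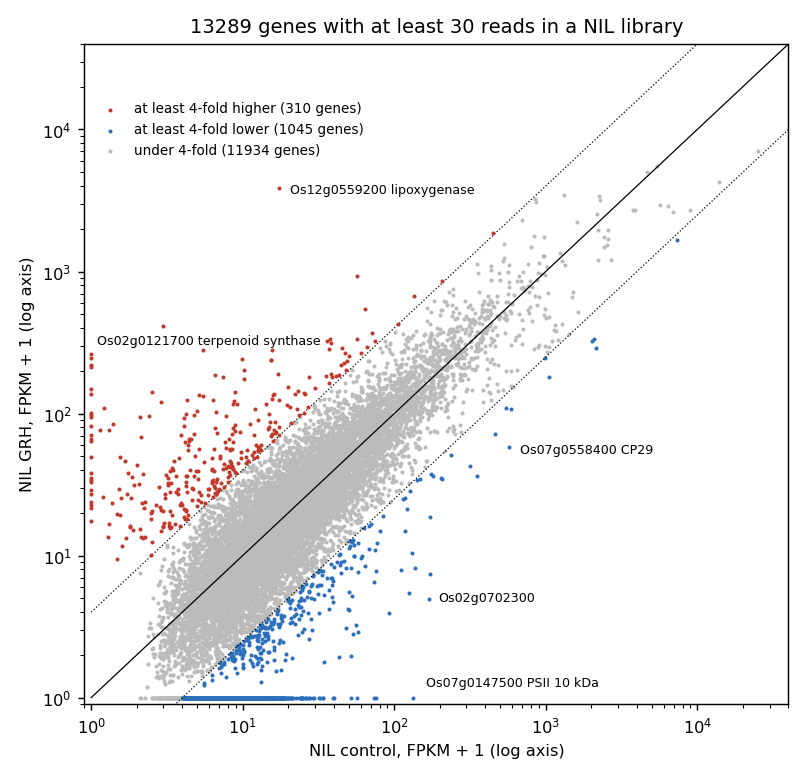
FPKM + 1 of each of the 13289 ranked genes in NIL GRH (vertical, log axis) against NIL control (horizontal, log axis), 1 point a gene; red points are at least 4-fold higher and blue points at least 4-fold lower in NIL GRH, the solid line marks equal levels and the dotted lines 4-fold. The 310 red genes include 24 listed at 0 in NIL control, at the left edge, and the 1045 blue genes include 769 listed at 0 in NIL GRH, along the bottom.

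The larger number of lower genes came with the unequal depth of the 2 libraries. In proportion to the totals, 6.97 reads in NIL GRH equal 30 reads in NIL control, and 138 genes entered through NIL GRH alone, against 6301 through NIL control alone. Of the 1045 lower genes, 769 (73.6%) were listed at 0 in NIL GRH, with a median of 47 reads in NIL control, and 28 had 30 reads or more in NIL GRH. A filter on the mean read number after scaling to the shallower library kept 6879 genes and gave 204 higher and 89 lower, so that 69.6% of its 4-fold differences were higher, against 22.9% in the ranking used here. The side with more 4-fold differences was not the same under these filters.

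For single genes, the counting error of the reads is given as an exact 95% binomial interval of the log2 ratio of reads after scaling by the library totals. It takes in neither variation between plants nor the pseudocount, and it is too narrow because the 2 mates of a fragment were both counted. Where a library had 0 reads, 3 reads per library were set in their place and the ratio is a lower bound, with no allowance for counting error in the library that had reads. A gene listed at 0 may also be a failed estimate of the transcript assembler. Coordinates are on IRGSP-1.0.

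The largest log2 ratio, 8.03, was that of Os02g0121700 (chromosome 2, 1145837 to 1151052), described as a terpenoid synthase, an enzyme that folds a prenyl diphosphate into a terpene. It had 260.2 FPKM (647 reads) in NIL GRH, against 0 reads in NIL control, at least 928-fold higher. A pair of sesquiterpene synthase genes that lie next to each other was close behind. Os08g0168000 (chromosome 8, 3972195 to 3977096) had 219 FPKM (467 reads) in NIL GRH, against 0 reads in NIL control, at least 670.1-fold higher. Os08g0167800 (chromosome 8, 3961276 to 3965426) had 137 FPKM (258 reads) in NIL GRH, against 0 reads in NIL control, at least 370.2-fold higher. All 3 terpene synthase genes were listed at 0 in NIL control.

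A pair of lipoxygenase genes of chromosome 12, whose products add oxygen to polyunsaturated fatty acids, were also among the 15 largest ratios. Os12g0559200 (chromosome 12, 22854591 to 22860198) had 3848 FPKM (14452 reads) in NIL GRH, against 16.4 FPKM (237 reads) in NIL control, a log2 ratio of 7.79 with a read interval of 7.85 to 8.23. It was the most abundant gene among the 15. Os12g0559934 (chromosome 12, 22934817 to 22935735) had 411 FPKM (295 reads) in NIL GRH, against 1.96 FPKM (7 reads) in NIL control, a log2 ratio of 7.12 with a read interval of 6.44 to 8.83. The pair may share reads, since both are annotated as lipoxygenases in the same region.

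Other genes of the 15 largest ratios code for enzymes of specialized metabolism. Os03g0797500 (chromosome 3, 33226461 to 33228543) is similar to indole-3-glycerol phosphate lyase, which in maize releases free indole, and had 149 FPKM (253 reads) in NIL GRH, against 0 reads in NIL control. Os02g0719600 (chromosome 2, 29850372 to 29852422), a carboxyl methyltransferase of the family that makes methyl esters of plant acids, had 97.4 FPKM (184 reads) in NIL GRH, against 0 reads in NIL control. Os07g0526400 (chromosome 7, 20504692 to 20506402), a type III polyketide synthase of the chalcone synthase family, had 93.5 FPKM (186 reads) in NIL GRH, against 0 reads in NIL control. These 3 genes were at least 363-fold, 264-fold and 267-fold higher in NIL GRH.

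Os10g0400500, annotated as a pyridoxal-dependent decarboxylase, a family that removes the carboxyl group of amino acids, had 101 FPKM (186 reads) in NIL GRH, against 0 reads in NIL control. Os12g0458100, a member of the BAHD-type transferase family that attaches acyl groups to alcohols and amines, had 108 FPKM (242 reads) in NIL GRH, against 0.209 FPKM (3 reads) in NIL control. Os04g0518400 codes for a phenylalanine ammonia-lyase (PAL), the enzyme that opens the phenylpropanoid pathway, and had 75.8 FPKM (236 reads) in NIL GRH, against 0.15 FPKM (3 reads) in NIL control. Os03g0130100, similar to an acyl-activating enzyme, had 69.4 FPKM (166 reads) in NIL GRH, against 0 reads in NIL control. Each of these 4 genes had at most 3 reads in NIL control.

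Os12g0247700, similar to a jasmonate-induced protein, had 80.7 FPKM (119 reads) in NIL GRH, against 0 reads in NIL control. Os10g0503300, similar to an acetyltransferase of taxane synthesis in yew, had 213 FPKM (73 reads) in NIL GRH, against 0 reads in NIL control, and its annotated span is short (chromosome 10, 19214959 to 19215235), which raises its FPKM per read. Os06g0493100, a conserved hypothetical protein, had 245 FPKM (159 reads) in NIL GRH, against 0 reads in NIL control. Of the 15 genes with the largest ratios, 11 were listed at 0 in NIL control, and the remaining 4 had between 3 and 237 reads there.

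**Figure D2:**
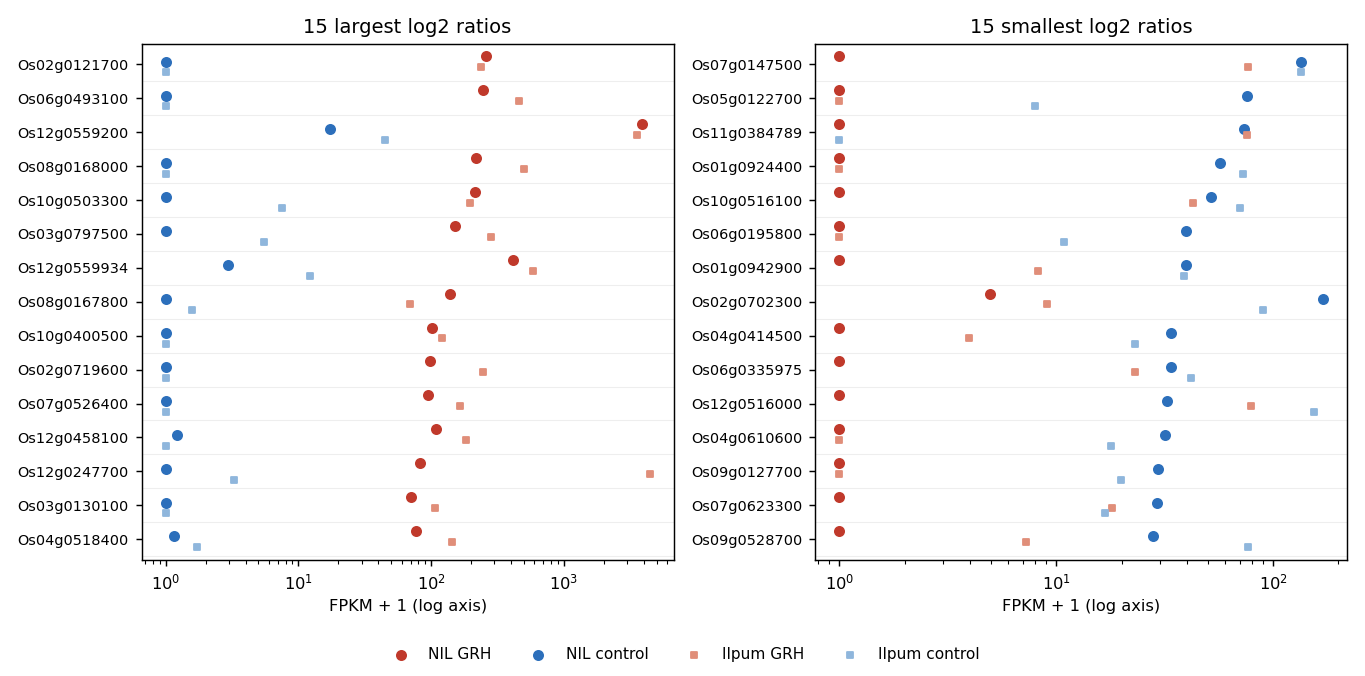
FPKM + 1 (log axis) in NIL GRH, NIL control, Ilpum GRH and Ilpum control for the 15 genes with the largest log2 ratios (left) and the 15 with the smallest (right), 1 point a library; a point at 1 is a gene listed at 0. On the left NIL GRH lies between 69.4 and 3848 FPKM and Ilpum GRH is above Ilpum control for every gene; on the right NIL GRH is listed at 0 for 14 genes, while the Ilpum libraries vary.

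The smallest ratios were mostly those of genes listed at 0 in NIL GRH. Os07g0147500 (chromosome 7, 2454338 to 2455636), similar to the 10 kDa polypeptide of photosystem II, a small subunit near the oxygen-evolving complex, had 0 reads in NIL GRH, against 133 FPKM (432 reads) in NIL control, at least 33.5-fold lower. It had 75.6 FPKM in Ilpum GRH, against 134 FPKM in Ilpum control. Os10g0516100 (chromosome 10, 19894753 to 19896794), the H subunit of the glycine decarboxylase complex of photorespiration, had 0 reads in NIL GRH, against 50.6 FPKM (200 reads) in NIL control, at least 15.5-fold lower, and 41.8 FPKM in Ilpum GRH, against 69.03 FPKM in Ilpum control. Other subunits of the same complexes kept reads in NIL GRH, as given below.

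Os01g0924400 (chromosome 1, 40477240 to 40479093), a bHLH factor annotated as similar to an auxin-induced one, had 0 reads in NIL GRH, against 55.9 FPKM (542 reads) in NIL control, at least 41.97-fold lower. It was likewise listed at 0 in Ilpum GRH, against 71.8 FPKM in Ilpum control. Os05g0122700, similar to a low-temperature induced protein, had 0 reads in NIL GRH, against 74.8 FPKM (228 reads) in NIL control. Os06g0195800, a DnaJ-type co-chaperone, had 0 reads in NIL GRH, against 38.8 FPKM (169 reads) in NIL control. Os01g0942900, described only by a cDNA clone, was at least 32.1-fold lower, with 0 reads in NIL GRH, against 38.6 FPKM (414 reads) in NIL control. The hydrolase-like gene Os11g0384789, also listed at 0 in NIL GRH, had a log2 ratio of -6.20 in the NIL and 6.25 in Ilpum. Of the 15 smallest NIL ratios, 9 were at least 4-fold lower and 1 at least 4-fold higher in Ilpum GRH.

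Only Os02g0702300 (chromosome 2, 28928706 to 28932005) among the 15 smallest ratios had reads in NIL GRH. This conserved hypothetical protein had 3.97 FPKM (16 reads) in NIL GRH, against 169 FPKM (2925 reads) in NIL control, a log2 ratio of -5.10 with a read interval of -6.22 to -4.71. It had 8.11 FPKM in Ilpum GRH, against 88.7 FPKM in Ilpum control. Because the others rest on a value of 0, the 15 smallest ratios among genes with at least 1 read in NIL GRH were also taken, a choice made after the values were seen.

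Os10g0180800 (chromosome 10, 5539743 to 5544578), a wall-associated kinase annotated as a negative regulator of resistance to rice blast, had 7.22 FPKM (22 reads) in NIL GRH, against 137 FPKM (1691 reads) in NIL control, a read interval of -4.84 to -3.56. It had 7.17 FPKM in Ilpum GRH, against 63.3 FPKM in Ilpum control. Os05g0217700, a protein with a BURP domain, had 4.49 FPKM (6 reads) in NIL GRH, against 124 FPKM (706 reads) in NIL control. Os01g0883800 codes for gibberellin 20-oxidase 2, which makes active gibberellin precursors and limits stem length when defective, and had 1.90 FPKM (3 reads) in NIL GRH, against 56.5 FPKM (349 reads) in NIL control. Os04g0107900, a cytosolic Hsp90-type chaperone annotated as heat shock protein 82, had 2.96 FPKM (2 reads) in NIL GRH, against 91.3 FPKM (390 reads) in NIL control. Os08g0200600, a NAC factor annotated as a negative regulator of drought tolerance, had 0.917 FPKM (2 reads) in NIL GRH, against 42.4 FPKM (300 reads) in NIL control. All of them were also lower in Ilpum GRH than in Ilpum control, with log2 ratios from -3.87 for Os05g0217700 to -1.71 for Os01g0883800.

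Functional lists were drawn up as words in the transcript descriptions, so a list holds what the annotation names and may miss members or take in unrelated ones. A list is described by its median and its counts beside those of all ranked genes, whose median was -0.14 and of which 9.26% were at least 2-fold higher and 19.4% at least 2-fold lower. Medians cover ranked members. Without a filter on reads the median was 0 for terpene synthases and for chitinases and other PR proteins, 0.60 for lipoxygenases, 0.73 for TIFY genes and -0.93 for seed storage proteins, while it was -1.46 for photosystem and antenna genes and -1.16 for Calvin cycle genes. The plot of the lists places terpene synthases and jasmonate genes at the upper end and seed storage, antenna and Calvin cycle genes at the lower end.

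**Figure D3:**
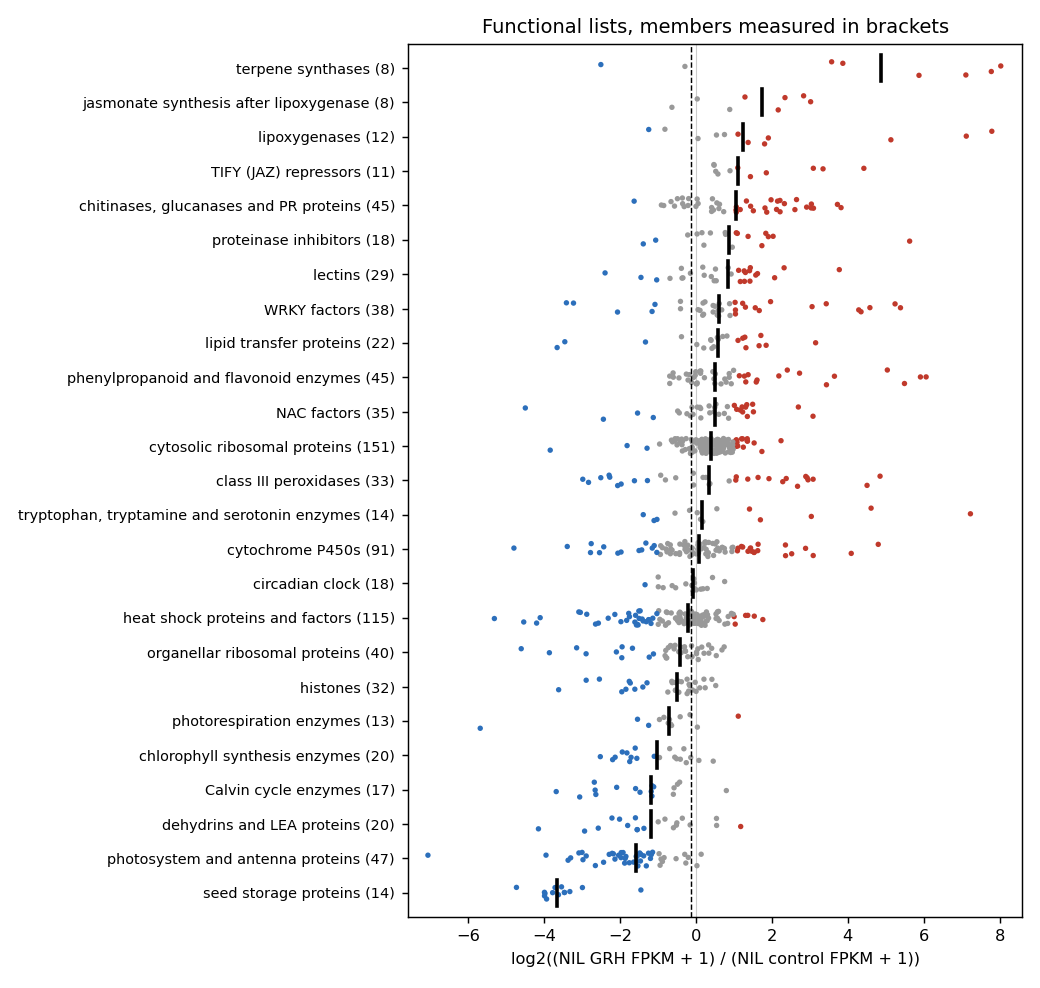
Log2 ratio of NIL GRH over NIL control (horizontal) for the members of functional lists (vertical), 1 point a gene, with red points at least 2-fold higher and blue points at least 2-fold lower; black bars are list medians and the dashed line is the median of all ranked genes, -0.14. List medians run from 4.87 for terpene synthases to -3.67 for seed storage proteins.

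Most ranked genes described as lipoxygenases or named for later jasmonate synthesis had higher levels in NIL GRH. The lipoxygenase list holds every gene so described, whether or not it acts in jasmonate synthesis. Of the 12 lipoxygenases, 7 were at least 2-fold higher and 1 at least 2-fold lower, with a median log2 ratio of 1.24. Beside the pair of chromosome 12, Os03g0738600, a lipoxygenase annotated for seed longevity, had 34.1 FPKM (122 reads) in NIL GRH, against 0 reads in NIL control. The gene at least 2-fold lower was Os02g0194700, similar to a chloroplast lipoxygenase of barley. It had 177 FPKM (549 reads) in NIL GRH, against 422 FPKM (5505 reads) in NIL control, a log2 ratio of -1.25. It was the most abundant lipoxygenase of NIL control, and it had 175 FPKM in Ilpum GRH, against 758 FPKM in Ilpum control.

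Of the 8 genes for later steps, 5 were at least 2-fold higher and none at least 2-fold lower, with a median of 1.73. Allene oxide synthase makes the unstable epoxide from which the hormone's ring is formed. Its gene Os03g0767000 had 64.9 FPKM (159 reads) in NIL GRH, against 7.13 FPKM (75 reads) in NIL control, and Os02g0218700 had 123 FPKM (259 reads) in NIL GRH, against 16.4 FPKM (148 reads) in NIL control. The ring is closed by allene oxide cyclase, and Os03g0438100 had 254 FPKM (332 reads) in NIL GRH, against 49.4 FPKM (277 reads) in NIL control, a log2 ratio of 2.34 with a read interval of 2.13 to 2.60. Reductases were listed for the next step by the words of their descriptions, whether or not they act in jasmonate synthesis. Among them, Os06g0215900 had 22.9 FPKM (37 reads) in NIL GRH, against 4.33 FPKM (30 reads) in NIL control. Os01g0369900 was at 5.44 FPKM in NIL GRH and 5.31 FPKM in NIL control. Os08g0459600 and Os06g0216300, also in the list of later steps, had log2 ratios of 1.29 and 0.89. A further allene oxide synthase gene, Os03g0766900, was at 10.2 FPKM in NIL GRH and 16.4 FPKM in NIL control.

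All 11 TIFY genes had log2 ratios above 0, and 6 were at least 2-fold higher, with a median of 1.10. These genes are themselves known targets of the hormone. Os04g0395800 had 42.2 FPKM (48 reads) in NIL GRH, against 1.02 FPKM (5 reads) in NIL control. Os09g0439200, annotated as a jasmonate ZIM-domain protein, had 137 FPKM (197 reads) in NIL GRH, against 15.2 FPKM (94 reads) in NIL control. Os07g0615200 had 289 FPKM (466 reads) in NIL GRH, against 79.3 FPKM (549 reads) in NIL control. The most abundant, Os03g0402800, had 506 FPKM in NIL GRH and 339 FPKM in NIL control, a log2 ratio of 0.58. All 4 were also higher in Ilpum GRH than in Ilpum control, with log2 ratios from 1.21 to 4.81.

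**Figure D4:**
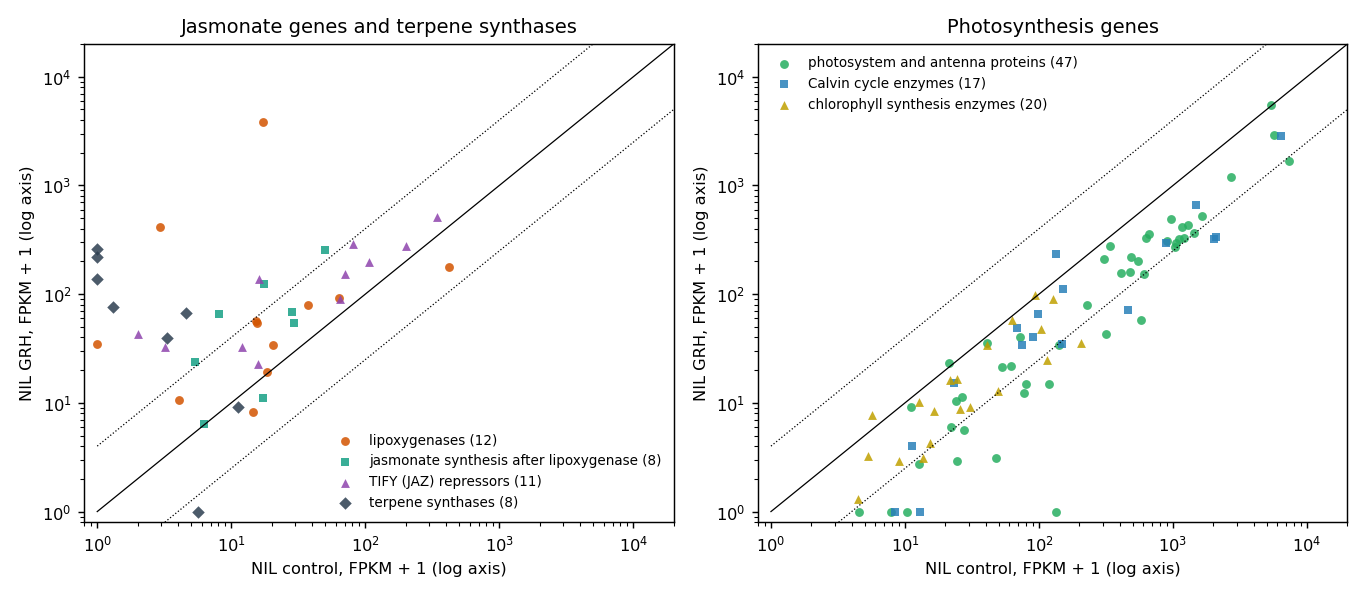
FPKM + 1 (log axes) in NIL GRH (vertical) against NIL control (horizontal), 1 point a gene, for lipoxygenases, later jasmonate synthesis, TIFY genes and terpene synthases on the left and for photosystem, antenna, Calvin cycle and chlorophyll synthesis genes on the right; the solid line marks equal levels and the dotted lines 4-fold. Most genes on the left lie above the line, with Os12g0559200 at 3848 FPKM in NIL GRH against 16.4 FPKM in NIL control, and most photosynthesis genes below it.

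Of 28 genes described as terpene synthases, 8 were ranked, and without a filter on reads the median was 0. The ranked ones had the largest list median, 4.87, and 6 of 8 were at least 4-fold higher and 1 at least 4-fold lower. Only Os08g0139700 and Os03g0347900 had at least 30 reads in both libraries. Their log2 ratios were 3.87 and -0.29, so that the median under that filter, 1.79, is only the midpoint of a higher and a lower gene. Beside the 3 genes above, Os01g0248701 had 75.5 FPKM (116 reads) in NIL GRH, against 0.304 FPKM (2 reads) in NIL control. Os08g0139700 had 65.7 FPKM (171 reads) in NIL GRH, against 3.57 FPKM (40 reads) in NIL control, and Os03g0348200 had 38.6 FPKM (79 reads) in NIL GRH, against 2.33 FPKM (21 reads) in NIL control. Of these 6 higher genes, all but Os08g0139700 had fewer than 30 reads in NIL control. They were thus ranked through NIL GRH alone, the library in which they were high. The list also held Os03g0347900, at 8.23 FPKM in NIL GRH and 10.3 FPKM in NIL control, and Os04g0611800, listed at 0 in NIL GRH and at 4.69 FPKM in NIL control. Terpene synthases are a family of near copies, and reads of neighbouring members may be shared. For genes that supply their substrates, the median over 14 isoprenoid precursor genes was -0.09, a sign that turned when the ratios were centred on the median of all genes, with 3 at least 2-fold higher and 1 at least 2-fold lower.

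The indole branch was split. Os03g0797400, the neighbour of Os03g0797500 and also similar to indole-3-glycerol phosphate lyase, had 240.1 FPKM (402 reads) in NIL GRH, against 8.86 FPKM (64 reads) in NIL control. Os09g0255400, an indole-3-glycerol phosphate synthase, which makes the substrate of the lyase, had 44.8 FPKM (78 reads) in NIL GRH, against 4.58 FPKM (34 reads) in NIL control. Anthranilate synthase makes the first compound of the branch, and its gene Os03g0264400 had 58.7 FPKM (122 reads) in NIL GRH, against 17.4 FPKM (151 reads) in NIL control. The tryptophan synthase beta chain gene Os08g0135900, by contrast, had 143 FPKM in NIL GRH and 132 FPKM in NIL control. Over the 14 genes of tryptophan, tryptamine and serotonin synthesis, 5 were at least 2-fold higher and 3 at least 2-fold lower.

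Of the 45 phenylpropanoid and flavonoid genes, 15 (33.3%) were at least 2-fold higher and none at least 2-fold lower, against 9.26% and 19.4% of all ranked genes. The higher genes included Os04g0518400, Os05g0427400, Os02g0627100, Os02g0626600 and Os08g0441500, with 3, 5, 14, 0 and 5 reads in NIL control. They were thus ranked through NIL GRH alone, the library in which they were high, which raises the share of higher genes. The list median was 0.51 in the ranking, 0 without a filter on reads and 0.77 with the filter on the scaled mean. PAL genes fell into 2 levels. Os05g0427400, Os02g0627100 and Os02g0626600 stood at 83.2, 93.99 and 31.9 FPKM in NIL GRH, against 0.399, 1.11 and 0 FPKM in NIL control. Os02g0626400 and Os02g0626100 were well expressed in both libraries. Os02g0626400 had 584 FPKM (1691 reads) in NIL GRH, against 241 FPKM (3035 reads) in NIL control, and Os02g0626100 had 304 FPKM (929 reads) in NIL GRH, against 137 FPKM (1798 reads) in NIL control. Os08g0441500, a cinnamoyl-CoA reductase of lignin formation, had 18.4 FPKM (32 reads) in NIL GRH, against 0.551 FPKM (5 reads) in NIL control. The PAL copies are close in sequence, so the split of reads among them is uncertain.

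Further steps of the phenylpropanoid pathway were mixed, and 9 of the 45 genes were at least 4-fold higher. Besides PAL and cinnamoyl-CoA reductase genes these held the 4-coumarate-CoA ligase gene Os08g0448000, with 22.3 FPKM (54 reads) in NIL GRH, against 1.16 FPKM (12 reads) in NIL control, and the caffeic acid O-methyltransferase gene Os08g0157500, with 136 FPKM (208 reads) in NIL GRH, against 24.9 FPKM (163 reads) in NIL control, both named after their values were seen. Differences were smaller in other genes of these steps. Os04g0683700, a 4-coumarate-CoA ligase-like gene, had 531 FPKM in NIL GRH and 390.5 FPKM in NIL control, and Os06g0656500, a 4-coumarate-CoA ligase of lignin synthesis, 103 and 168 FPKM in NIL GRH and NIL control. The cinnamyl alcohol dehydrogenase gene Os09g0400300 had 34.1 FPKM in NIL GRH and 55.8 FPKM in NIL control. In the BAHD-type transferase family, 4 of 19 genes were at least 4-fold higher and 1 at least 4-fold lower. After Os12g0458100 came Os05g0449200, with 24.9 FPKM (58 reads) in NIL GRH, against 0.203 FPKM (3 reads) in NIL control, and Os05g0136900, with 80.6 FPKM (171 reads) in NIL GRH, against 3.08 FPKM (28 reads) in NIL control.

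Proteinase inhibitors, which block digestive enzymes of feeding insects, were abundant in both NIL libraries and summed to 14960 FPKM in NIL GRH, against 7586 FPKM in NIL control, over the 18 ranked genes of 49. A region of chromosome 1 holds 3 abundant ones. Os01g0123900, a Bowman-Birk inhibitor, had 3434 FPKM (3598 reads) in NIL GRH, against 1328 FPKM (5961 reads) in NIL control. The nearby Os01g0124000, a Bowman-Birk trypsin inhibitor, had 2321 FPKM (2580 reads) in NIL GRH, against 697 FPKM (3320 reads) in NIL control. Os01g0132000, similar to the wound-induced inhibitor WIP1 of maize, had 3095 FPKM (2132 reads) in NIL GRH, against 866 FPKM (2555 reads) in NIL control. Their read intervals were 1.32 to 1.44, 1.67 to 1.82 and 1.76 to 1.93. In Ilpum the same 3 genes had log2 ratios of 1.22, 2.01 and 2.37.

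Not every inhibitor followed. Os01g0615100, a chymotrypsin inhibitor annotated for salt and osmotic stress, had 719 FPKM (427 reads) in NIL GRH, against 1504 FPKM (3826 reads) in NIL control, a log2 ratio of -1.06, and the cystatin Os05g0494200 had 349 FPKM in NIL GRH and 343 FPKM in NIL control. The largest ratio of the list was that of Os12g0548401, with 48.4 FPKM (30 reads) in NIL GRH, against 0 reads in NIL control. In all, 8 of 18 were at least 2-fold higher and 2 at least 2-fold lower.

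Chitinases and glucanases cut chitin and wall glucans, and with thaumatin-like proteins they are among the pathogenesis-related (PR) proteins. Of 45 such genes, 23 (51.1%) were at least 2-fold higher and 1 at least 2-fold lower. Os10g0416500, similar to a chitinase from tulip bulbs, had 122 FPKM (160 reads) in NIL GRH, against 7.71 FPKM (44 reads) in NIL control. Os01g0940800, a beta-1,3-glucanase, had 135 FPKM (206 reads) in NIL GRH, against 14.96 FPKM (98 reads) in NIL control. Os12g0629700, a thaumatin-like protein, had 312 FPKM (304 reads) in NIL GRH, against 37.1 FPKM (155 reads) in NIL control and was listed at 0 in both Ilpum libraries. The most abundant, the chitinase Os05g0247100, had 3426 FPKM (5016 reads) in NIL GRH, against 2233 FPKM (14012 reads) in NIL control, a log2 ratio of 0.62.

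Class III peroxidases, which oxidize phenolics in the wall, went both ways. Of 33, 14 (42.4%) were at least 2-fold higher and 9 (27.3%) at least 2-fold lower. Os04g0688300 had 288 FPKM (458 reads) in NIL GRH, against 44.3 FPKM (302 reads) in NIL control, and the nearby Os04g0688100 had 91.8 FPKM (168 reads) in NIL GRH, against 3.09 FPKM (24 reads) in NIL control. On the lower side Os02g0240300 had 58.1 FPKM (88 reads) in NIL GRH, against 143 FPKM (925 reads) in NIL control, whereas 5 of the 9 lower genes were listed at 0 in NIL GRH.

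Lectins bind sugars and some are toxic to insects. Of 29, 13 were at least 2-fold higher and 3 at least 2-fold lower, with Os04g0586500 at 58.9 FPKM in NIL GRH, against 3.38 FPKM in NIL control. Lipid transfer proteins carry lipids to the surface and wall, and 8 of 22 were at least 2-fold higher and 3 at least 2-fold lower. The abundant Os12g0115100 had 1020.2 FPKM (1001 reads) in NIL GRH, against 434 FPKM (1825 reads) in NIL control. Of 8 aquaporins, 2 were at least 2-fold higher and 2 at least 2-fold lower. The largest ratio among them was that of Os06g0228200, annotated as a silicon influx transporter. It had 133 FPKM (256 reads) in NIL GRH, against 4.50 FPKM (44 reads) in NIL control and 283 FPKM in Ilpum GRH, against 5.10 FPKM in Ilpum control. Silicon taken up by grasses hardens their leaves.

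Among transcription factors, WRKY proteins bind W-box elements of defence genes. Of 38 WRKY genes, 15 (39.5%) were at least 2-fold higher and 5 at least 2-fold lower. Os11g0117400 had 119.6 FPKM (120 reads) in NIL GRH, against 1.88 FPKM (9 reads) in NIL control. Os05g0322900, annotated for inducible blast resistance, had 124 FPKM (179 reads) in NIL GRH, against 5.41 FPKM (35 reads) in NIL control. Os09g0417600, annotated as a transcriptional repressor in pathogen defence, had 96.1 FPKM (100 reads) in NIL GRH, against 3.77 FPKM (19 reads) in NIL control. Of the 5 lower genes, 2 were listed at 0 in NIL GRH.

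NAC factors act in stress and leaf ageing, and 12 of 35 were at least 2-fold higher and 4 at least 2-fold lower. Os07g0683200 had 539.6 FPKM (1088 reads) in NIL GRH, against 62.9 FPKM (543 reads) in NIL control, a log2 ratio of 3.08 with a read interval of 2.96 to 3.26. It had 167 FPKM in Ilpum GRH, against 103 FPKM in Ilpum control. Os03g0327800, a NAC activator annotated for abiotic stress and leaf ageing, had 348 FPKM (757 reads) in NIL GRH, against 123 FPKM (1148 reads) in NIL control.

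Of 45 bHLH genes, 7 were at least 2-fold higher and 5 at least 2-fold lower. Os04g0301500 had 101 FPKM (159 reads) in NIL GRH, against 5.63 FPKM (38 reads) in NIL control and 395 FPKM in Ilpum GRH, against 5.64 FPKM in Ilpum control, while Os03g0782500, a phytochrome-interacting factor-like protein, had 11.4 FPKM (28 reads) in NIL GRH, against 51.4 FPKM (539 reads) in NIL control. Of 38 AP2/ERF genes, 7 were higher and 2 lower by 2-fold. Os03g0191900 had 78.8 FPKM (128 reads) in NIL GRH, against 13.9 FPKM (96 reads) in NIL control. For MYB genes the counts were 8 higher (15.1%) and 5 lower (9.43%) of 53, and for bZIP genes 2 (6.90%) and 7 (24.1%) of 29. Receptors with an NB-ARC domain, the class to which many resistance genes of plants belong, gave 12 higher (15.6%) and 11 lower (14.3%) of 77. Of all ranked genes, 9.26% were at least 2-fold higher and 19.4% at least 2-fold lower. The list medians of MYB and NB-ARC genes lay near 0 and their sign turned with the scaling.

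Photosynthesis genes were lower in NIL GRH. Of 47 genes for photosystem and antenna proteins, 36 (76.6%) were at least 2-fold lower, against 19.4% of all ranked genes, and none was 2-fold higher. The median log2 ratio was -1.58. The 47 genes summed to 17534 FPKM (16502 reads) in NIL GRH, against 39480 FPKM (175295 reads) in the deeper NIL control. Of these genes 4, Os07g0147500 included, were listed at 0 in NIL GRH. Antenna and rubisco small subunit genes are also the markers of leaf mesophyll, 14 of 17 of which were at least 2-fold lower, so that a smaller share of mesophyll RNA and lower transcript levels in those cells cannot be told apart.

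Antenna proteins carry the chlorophyll that gathers light. Os09g0346500, an LHCII protein and the most abundant of them in NIL GRH, had 2934 FPKM (4421 reads) in NIL GRH, against 5665 FPKM (36574 reads) in NIL control. Os01g0600900, an LHCII type I protein, had 1674 FPKM (1450 reads) in NIL GRH, against 7370.3 FPKM (27391 reads) in NIL control. The minor antenna proteins CP29 (Os07g0558400) and CP24 (Os04g0457000) differed more. CP29 had 57.2 FPKM (86 reads) in NIL GRH, against 574 FPKM (3670 reads) in NIL control, and CP24 had 41.6 FPKM (58 reads) in NIL GRH, against 316 FPKM (1886 reads) in NIL control, with log2 ratios of -3.31 and -2.90. Os07g0105600, a PsbQ-type protein of the oxygen-evolving complex, had 2.10 FPKM (3 reads) in NIL GRH, against 47.1 FPKM (193 reads) in NIL control, while it had 81.9 FPKM in Ilpum GRH, against 77.4 FPKM in Ilpum control.

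Rubisco fixes carbon in the Calvin cycle, and its small subunit is coded in the nucleus. Os12g0274700 had 333 FPKM (339 reads) in NIL GRH, against 2082 FPKM (9052 reads) in NIL control, Os12g0291100 had 321 FPKM (328 reads) in NIL GRH, against 2033 FPKM (6922 reads) in NIL control, and Os12g0291400 had 71.1 FPKM (82 reads) in NIL GRH, against 462 FPKM (2279 reads) in NIL control. The log2 ratios were -2.64, -2.66 and -2.68. In Ilpum the same 3 genes had log2 ratios of -1.04, 0.41 and 0.47. Reads may be shared among these near-identical copies. Rubisco activase (Os11g0707000), which frees blocked rubisco, had 2869 FPKM (5227 reads) in NIL GRH, against 6429 FPKM (50080 reads) in NIL control. Of 17 Calvin cycle genes, 12 were at least 2-fold lower and none 2-fold higher.

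Chlorophyll synthesis was lower as well, with 10 of 20 genes at least 2-fold lower and none 2-fold higher. Protochlorophyllide reductase makes chlorophyllide in the light, and its gene Os10g0496900 had 24.04 FPKM (52 reads) in NIL GRH, against 114 FPKM (1096 reads) in NIL control. The cyclase subunit gene Os01g0279100 had 34.5 FPKM (61 reads) in NIL GRH, against 203 FPKM (1344 reads) in NIL control. Photorespiration genes showed smaller differences, with 3 of 13 (23.1%) at least 2-fold lower and 1 (7.69%) at least 2-fold higher, against 19.4% and 9.26% of all ranked genes. Glycolate oxidase (Os03g0786100) had 547 FPKM in NIL GRH and 986 FPKM in NIL control, and the P subunit of glycine decarboxylase (Os06g0611900) had 49.96 and 98.5 FPKM in NIL GRH and NIL control. The P subunit thus kept 82 reads in NIL GRH where the H subunit was listed at 0.

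Nuclear genes annotated as copies of plastid genes may hold reads of the plastid itself. The copy of the D1 protein gene, Os04g0473150, had 5497 FPKM (2967 reads) in NIL GRH, against 5411 FPKM (12513 reads) in NIL control, and the copy of the rubisco large subunit gene with the most FPKM, Os01g0791033, had 7074 FPKM (6996 reads) in NIL GRH, against 25095 FPKM (106349 reads) in NIL control. The D1 copy was level between the libraries and the large subunit copy was lower in NIL GRH. Genes of chlorophyll breakdown and leaf ageing were mixed, with 7 higher (21.9%) and 6 lower (18.8%) by 2-fold of 32, against 9.26% and 19.4% of all ranked genes. Os09g0532000, a chloroplast protein that activates chlorophyll breakdown, had 189.7 FPKM (319 reads) in NIL GRH, against 66.96 FPKM (483 reads) in NIL control, whereas Os04g0692600, with a staygreen domain, had 2.94 FPKM (5 reads) in NIL GRH, against 30.9 FPKM (173 reads) in NIL control.

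Other primary metabolism differed gene by gene. Isocitrate lyase (Os07g0529000) and malate synthase (Os04g0486950) are the paired enzymes of the glyoxylate cycle, by which fatty acid carbon is turned to sugar. Isocitrate lyase had 3241 FPKM (8273 reads) in NIL GRH, against 848 FPKM (9274 reads) in NIL control, and malate synthase had 593 FPKM (1481 reads) in NIL GRH, against 383 FPKM (4102 reads) in NIL control. Isocitrate lyase had 398 FPKM in Ilpum GRH, against 346 FPKM in Ilpum control, and malate synthase had 219 FPKM in Ilpum GRH, against 434 FPKM in Ilpum control. Nitrite reductase (Os01g0357100), which makes ammonium in the chloroplast, had 106 FPKM (323 reads) in NIL GRH, against 588 FPKM (7282 reads) in NIL control, and 54.8 FPKM in Ilpum GRH, against 935 FPKM in Ilpum control. The monosaccharide transporter gene Os07g0559700 had 608 FPKM (1182 reads) in NIL GRH, against 220.1 FPKM (1835 reads) in NIL control. Os07g0106200, a hexose transporter gene, had 144 FPKM (335 reads) in NIL GRH, against 22.01 FPKM (220 reads) in NIL control.

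Dehydrins and late embryogenesis abundant (LEA) proteins protect cells from drying. Of 20, 10 were at least 2-fold lower and 1 at least 2-fold higher. The dehydrin gene Os11g0454200 had 243 FPKM (259 reads) in NIL GRH, against 987 FPKM (4505 reads) in NIL control, and the nearby Os11g0454000 had 36.6 FPKM (36 reads) in NIL GRH, against 174 FPKM (722 reads) in NIL control. The LEA gene Os01g0314800 went the other way, with 1176 FPKM (862 reads) in NIL GRH, against 520.2 FPKM (1633 reads) in NIL control. The most abundant of the list, Os05g0542500, had 2714 FPKM (3247 reads) in NIL GRH, against 3889 FPKM (19971 reads) in NIL control.

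Heat shock proteins and factors had 31 of 115 genes (26.96%) at least 2-fold lower, against 19.4% of all ranked genes, and 6 at least 2-fold higher. An abundant Hsp70 gene, Os03g0276500, had 968 FPKM (2660 reads) in NIL GRH, against 490.0 FPKM (5772 reads) in NIL control. Cytosolic ribosomal proteins were close together: 151 genes had a median of 0.41, with 15 at least 2-fold higher and 3 at least 2-fold lower. The 40 organellar ones had a median of -0.43, with none higher and 10 (25%) lower by 2-fold, and 4 were listed at 0 in NIL GRH. With at least 30 reads in both libraries, a filter that removes lower genes more readily, their median was 0.05, so its sign turned. Clock genes hardly differed, with 1 of 18 outside 2-fold.

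Seed storage proteins are made in the developing grain. Of the 45 genes, 14 were ranked, all of them through NIL control, and 13 were at least 4-fold lower in NIL GRH, of which all 13 were listed at 0 there. The summed level over the 45 genes was 4.49 FPKM in NIL GRH and 218 FPKM in NIL control, and 340 FPKM in Ilpum GRH and 171 FPKM in Ilpum control. Reads were found for 1 of the genes in NIL GRH, 31 in NIL control, 25 in Ilpum GRH and 23 in Ilpum control. The alpha-globulin gene Os05g0499100 had 0 reads in NIL GRH, against 25.6 FPKM (106 reads) in NIL control, and 18.6 FPKM in Ilpum GRH, against 3.45 FPKM in Ilpum control. The part of material from seed in any of the 4 libraries was not tested.

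The ratios were then set beside those of Ilpum GRH over Ilpum control for the same genes, which come from separate libraries. Over the 13289 genes, 639 (4.81%) were at least 4-fold higher and 1642 (12.4%) at least 4-fold lower in Ilpum GRH. At 2-fold, 1961 (14.8%) were higher and 3512 (26.4%) lower. Of the 50 genes with the largest NIL ratios, 48 were at least 4-fold higher in Ilpum GRH, and their median log2 ratio was 5.28 in the NIL and 5.50 in Ilpum. Of the 310 genes at least 4-fold higher in NIL GRH, 268 (86.5%) were at least 2-fold higher in Ilpum GRH, against 14.8% of all ranked genes, and 5 were at least 2-fold lower.

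At the lower end, of the 50 smallest NIL ratios, 27 were at least 2-fold lower and 5 at least 2-fold higher in Ilpum GRH, with a median log2 ratio of -4.61 in the NIL and -1.31 in Ilpum. Of the 1045 genes at least 4-fold lower in NIL GRH, 496 (47.5%) were at least 2-fold lower in Ilpum GRH, against 26.4% of all ranked genes, and 138 (13.2%) were at least 2-fold higher. Of the same 1045 genes, 769 were listed at 0 in NIL GRH and 425 in Ilpum GRH. Both GRH libraries were the shallower of their line, with 894661 reads in Ilpum GRH and 2119765 in Ilpum control. What part depth had in the shared lower levels was not tested. No difference between the lines was tested.

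**Figure D5:**
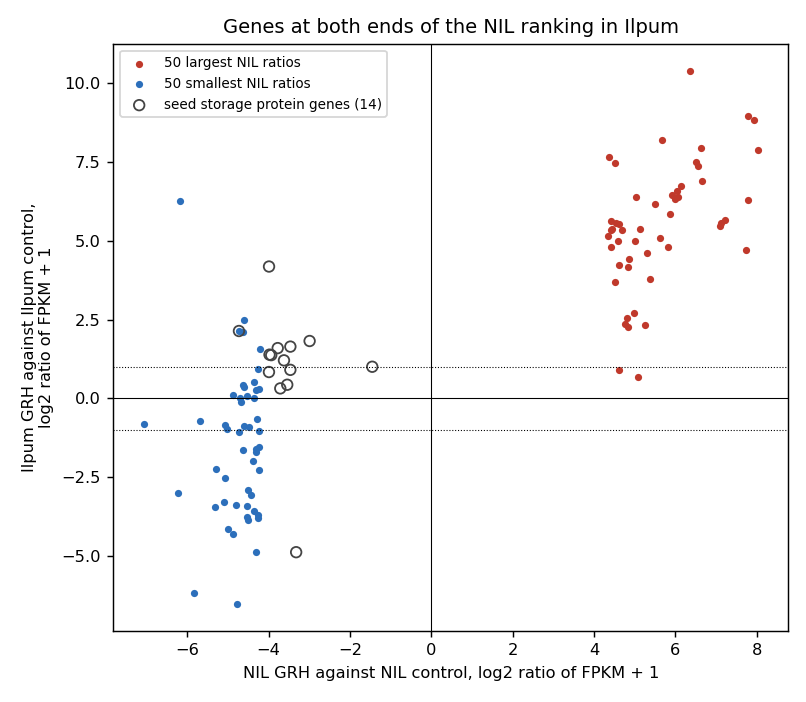
Log2 ratio of NIL GRH over NIL control and of Ilpum GRH over Ilpum control for the 50 genes with the largest and the 50 with the smallest NIL ratios, 1 point a gene. The largest have medians of 5.28 in the NIL and 5.50 in Ilpum, and the smallest have medians of -4.61 in the NIL and -1.31 in Ilpum, where they spread on both sides of 0.

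The jasmonate, terpene and photosynthesis lists had medians of the same sign in both lines. Medians in the NIL and in Ilpum were 1.24 and 1.63 for lipoxygenases, 1.10 and 1.86 for TIFY genes, and 4.87 and 4.11 for terpene synthases. Photosystem and antenna genes had medians of -1.58 in the NIL and -0.78 in Ilpum, and Calvin cycle genes -1.18 and -0.36. The jasmonate-induced protein gene Os12g0247700 had 80.7 FPKM in NIL GRH, against 0 FPKM in NIL control, and 4421 FPKM in Ilpum GRH, against 2.26 FPKM in Ilpum control.

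The genes with large ratios were spread over the genome. The share of ranked genes at least 4-fold higher ran from 1.61% on chromosomes 2 and 8 to 3.44% on chromosome 10, and the share at least 4-fold lower from 6.99% on chromosome 6 to 8.87% on chromosome 4. On chromosome 5, which carries Grh1, 2.14% were higher and 7.85% lower, close to the 2.33% and 7.86% of all ranked genes. Among the 50 largest ratios, 6 genes lay in 3 neighbouring pairs. These were the PAL genes Os02g0626600 and Os02g0627100 on chromosome 2, the indole-3-glycerol phosphate lyase genes Os03g0797400 and Os03g0797500 on chromosome 3, and the sesquiterpene synthase genes Os08g0167800 and Os08g0168000 on chromosome 8. No neighbouring pair was found among the 50 smallest ratios.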

How the data were processed

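Leaf RNA of 4 libraries, NIL GRH, NIL control, Ilpum GRH and Ilpum control, was sequenced with paired ends by the study. The submitters' notes name Trimmomatic and the build IRGSP-1.0. Per the file headers, reads were aligned with HISAT and quantified by the authors with StringTie 1.3.4d on the RAP-DB annotation, with strand used. The methods of the study also name Trinity and edgeR, and what role these had in the files is not given in the sources used here. The authors deposited a whole-number read count, FPKM and TPM for each of 44643 transcripts, with a description of each. These counts behave as StringTie coverage rounded up to whole reads.

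Read counts and FPKM of 37849 genes were taken as the authors deposited them at the gene level. The transcript entries gave the descriptions and the number of transcripts per gene. Genes with at least 30 reads in NIL GRH or NIL control (13289) were ranked by log2((FPKM + 1)/(FPKM + 1)), NIL GRH over NIL control. Read intervals are exact 95% binomial intervals of the scaled ratio of counts, and a count of 0 was set to 3 reads for bounds. They cover counting error only. Named genes were the 15 largest and 15 smallest ratios and, for each functional list, up to 5 at each end and the 3 most abundant. The 15 smallest with reads in NIL GRH were added after the values were seen.

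Members, lists and tests were chosen with earlier results of these data known. The words that define the lists were corrected, and 4 lists added, after the matched genes were seen. No column of the authors' own comparisons was used. A planned search of promoter motifs was not run, because promoter sequences were not used here. Alternatives were another unit, scaling (TMM of edgeR 4.0.16, size factors of DESeq2 1.42.0, quantiles), pseudocount, read filter and fold. Python 3.11.15, numpy 2.4.6, pandas 2.3.3, scipy 1.17.1, matplotlib 3.10.9 and R 4.3.3 were used, and the ranking and the intervals were run on simulated data. These had independent counts and changes placed only in genes with many reads in NIL control. They therefore do not cover changed genes with few reads or counts that take in both mates of a fragment. Sequences are not shown, since the gene identifiers of the files could not be matched to the reference table used here.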

Additional observations from a re-analysis of the deposited data

Results flagged for a closer look

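In 6 named genes and 1 list the NIL ratio and the Ilpum ratio were each at least 4-fold, or for the list at least 2-fold, but in opposite directions. The difference was not tested in any of them, because each condition has 1 library. A hydrolase-like gene, Os11g0384789, had a log2 ratio of -6.20 in the NIL and 6.25 in Ilpum. The seed storage genes Os05g0499100 (alpha-globulin) and Os03g0427300 (glutelin) had -4.73 and -3.99 in the NIL and 2.14 and 4.19 in Ilpum, and the list of seed storage proteins had a median of -3.67 in the NIL and 1.29 in Ilpum. Os05g0186000, a chloroplast ribosomal protein S31, had -4.61 in the NIL and 2.48 in Ilpum. Os03g0602300, a cytochrome P450 85A1 of brassinosteroid synthesis, had -2.54 in the NIL and 2.43 in Ilpum, and Os10g0109300, a peroxidase, had -2.29 in the NIL and 3.60 in Ilpum. All 6 genes were listed at 0 in NIL GRH.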

How the results depend on the processing

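The counts of 310 higher and 1045 lower genes at 4-fold moved mainly with the filter on reads and with the fold. With at least 10 reads in 1 library they were 624 and 1603, with at least 100 reads 129 and 276, and without a filter 949 and 1649. At 2-fold they were 1231 and 2579, and at 8-fold 134 and 378. A filter on the mean after scaling to the shallower library gave 204 higher and 89 lower, which turns the larger side. Of 2 filters chosen after seeing the data, at least 1 read in both libraries gave 276 lower beside 286 higher, and at least 30 reads in both gave 174 higher and 28 lower. With NIL control 4.30 times as deep, both remove lower genes more readily than higher ones, so that their split is set in part by the filter. TPM, TMM, DESeq2 size factors, quantile scaling, centring, a pseudocount of 0.1 FPKM and genes with 1 transcript gave 242 to 349 higher and 811 to 1400 lower, within 1.5 times. Centring moves every ratio by 0.14.

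Of 46 lists with at least 5 members, 11 had a median of at least 2-fold, and none of these took the opposite sign under any alternative, although their size moved. Medians ran from -1.72 to -1.43 for photosystem and antenna genes, -1.48 to -1.04 for the Calvin cycle and -2.39 to -1.80 for mesophyll markers. They ran from 0 to 6.49 for terpene synthases, 0 to 1.33 for chitinases and other PR proteins, 0.60 to 1.45 for lipoxygenases, 0.89 to 2.16 for later jasmonate synthesis, 0.73 to 1.85 for TIFY genes, -1.26 to -0.46 for chlorophyll synthesis, -1.55 to -0.47 for dehydrins and LEA proteins and -6.89 to -0.93 for seed storage proteins. Among the others, 6 changed sign under another scaling and 11 under any alternative. With the filter on the scaled mean the MYB median was 0.29 in place of -0.09 and the NB-ARC median 0.55 in place of -0.04. No named gene with a ratio of at least 2-fold changed sign, and the genes at both ends stayed past 4-fold in all 479 values computed for them. A filter leaves the ratio of a single gene as it is, so only another unit, scaling or pseudocount could move these values. The genes at the ends were also chosen for their extreme ratios, so this result was in large part fixed beforehand.

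No paired analysis was possible because each condition has 1 library and the groups share only the number 1. No replicate was left out, with 1 library per condition. A value of 0 in NIL GRH limits a ratio only as far as the reads of NIL control allow: of the 6752 genes for which 30 reads would be found in NIL GRH in proportion to NIL control, 36 were listed at 0 there, and of the 11604 with 10 such reads, 475 were.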

Other observations

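Further gene groups were spread on both sides. Of 91 cytochrome P450 genes, 19 (20.9%) were at least 2-fold higher and 14 (15.4%) at least 2-fold lower in NIL GRH. The shares of all ranked genes were 9.26% and 19.4%. Os09g0441400, similar to an elicitor-inducible P450, had 74.05 FPKM (165 reads) in NIL GRH, against 7.84 FPKM (75 reads) in NIL control. Os03g0227700, a brassinosteroid hydroxylase, had 14.4 FPKM (34 reads) in NIL GRH, against 1.09 FPKM (11 reads) in NIL control. Among 29 glutathione S-transferases, which attach glutathione to toxic compounds, 6 (20.7%) were higher and 4 (13.8%) lower by 2-fold. The abundant Os09g0467200 was at 375 FPKM in NIL GRH, against 101 FPKM in NIL control.

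Calcium sensors read the calcium signal that follows wounding. Of 90, 12 (13.3%) were at least 2-fold higher and 15 (16.7%) at least 2-fold lower, against 9.26% and 19.4% of all ranked genes. The EF-hand gene Os07g0619200 had 179.8 FPKM (151 reads) in NIL GRH, against 6.38 FPKM (29 reads) in NIL control, and 275 FPKM in Ilpum GRH, against 148 FPKM in Ilpum control. Of 16 genes for wall loosening, 6 were higher and 3 lower. Os08g0237000, a xyloglucan endotransglycosylase, had 26.1 FPKM in NIL GRH, against 7.84 FPKM in NIL control, and 319.9 FPKM in Ilpum GRH, against 22.1 FPKM in Ilpum control. Histone genes had 10 of 32 at least 2-fold lower and none higher, with the histone H1 gene Os04g0253000 at 139 FPKM in NIL GRH, against 427 FPKM in NIL control. The syn-copalyl diphosphate synthase gene Os04g0178300 of diterpenoid phytoalexins had 12.5 FPKM (40 reads) in NIL GRH, against 0.293 FPKM (4 reads) in NIL control.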
